A study of Mus musculus with 12 samples.

Results

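A group of 42 mouse genes with roles in DNA replication and S phase was followed through 12 microarrays of CD4+ T cells that carried different forms of Foxp3. The members were chosen by function, by matching 42 gene symbols to the array annotation. Each symbol was found, so the group makes up 42 of the 16426 genes that a single probe set could name. The probe set with the highest mean over the 12 arrays stood for a gene; Pcna had 2 such probe sets and each other member had 1. No measured value entered the choice of members by that rule, but the group was proposed with earlier results of these data known.

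The 12 samples form 6 groups of 2 arrays, all labelled as spleen cells of male C57Bl/6 mice aged 6 weeks. In 3 groups the RNA came from regulatory T cells (Tregs), the CD4+ T cells that restrain immune responses and depend on the transcription factor Foxp3. These cells were CD4+TCRb+CD25+ and came from mice of the genotypes Foxp3(WT/WT), Foxp3(M354/M354) and Foxp3(M176/M176). In the other 3 groups, conventional T cells of wild-type (WT) mice had been transduced in vitro with a retrovirus that delivered WT, M354 or M176 Foxp3, and were sorted as CD4+TCRb+THY1.1+. Both kinds of cell were sorted, and sorted again, for high CD25 or high Thy1.1. M354 and M176 are mutant forms of Foxp3 for which the labels state no sequence change. A transduced cell keeps its own WT Foxp3 gene and its Foxp3 comes from a vector, and no group received a vector without Foxp3, so these cells are a model of forced expression. Nothing in the labels ties the 2 arrays of a group to different mice or cultures, so each p-value covers only the variation among these samples, part or all of which may be technical.

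Before S phase, the origin recognition complex and Cdt1 load the MCM helicase onto DNA, and Cdc45, the GINS complex, Mcm10 and Ticrr then help to start it. DNA polymerases copy the strands while the sliding clamp Pcna, its loader RFC, the nuclease Fen1 and the ligase Lig1 complete the lagging strand. Ribonucleotide reductase and thymidylate synthase supply nucleotides, and histone chaperones and Uhrf1 restore chromatin and DNA methylation behind the fork. Cyclin E and the E2F factors control entry into S phase; E2f1 and E2f2 are activators and E2f8 is a repressor that is itself made in S phase. T cells that divide make these transcripts, and resting T cells make little of many of them.

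Many replication genes carry binding sites for E2F factors and the CCAAT box of the factor NF-Y close to their start, so the promoters of 4 members were printed to show what the genes that moved most look like beside one that did not pass the test in either of those comparisons. E2f8 and Rrm2 had the largest called changes in M176 against WT Tregs among members with a promoter in the table. Ticrr had the largest such change in WT Tregs against WT-transduced cells, where Ccne2 changed more but had no entry. Pcna was the brightest member with an entry that was called in neither comparison. Its values come from the brighter of its 2 probe sets. Whether that probe set reads the gene at this promoter was not checked. Each runs 5′ to 3′ on the gene's strand from 250 bases before to 50 bases after a start in the RefSeq table for GRCm38.p6. Capitals mark the CCAAT box and the E2F core, each searched on both strands. The E2F core is the last 7 letters of TTTCCCGC, TTTGGCGC, TTTCGCGC or TTTGCCGC. The windows are chr7:48881547-48881846 on the minus strand for E2f8, chr12:24708004-24708303 on the plus strand for Rrm2, chr7:79659946-79660245 on the plus strand for Ticrr and chr2:132253131-132253430 on the minus strand for Pcna.
E2f8: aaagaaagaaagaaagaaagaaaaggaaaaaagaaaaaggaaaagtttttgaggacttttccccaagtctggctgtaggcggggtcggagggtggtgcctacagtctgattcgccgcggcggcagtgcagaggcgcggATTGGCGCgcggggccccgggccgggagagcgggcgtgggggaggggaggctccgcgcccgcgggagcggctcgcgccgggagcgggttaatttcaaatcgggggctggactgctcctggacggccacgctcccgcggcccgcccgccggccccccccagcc
Rrm2: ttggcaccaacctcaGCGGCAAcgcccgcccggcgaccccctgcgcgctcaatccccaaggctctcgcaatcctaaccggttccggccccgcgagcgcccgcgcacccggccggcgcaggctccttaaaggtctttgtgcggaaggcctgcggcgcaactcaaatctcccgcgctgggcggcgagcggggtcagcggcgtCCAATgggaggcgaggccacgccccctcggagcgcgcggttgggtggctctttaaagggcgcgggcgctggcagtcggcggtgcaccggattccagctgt
Ticrr: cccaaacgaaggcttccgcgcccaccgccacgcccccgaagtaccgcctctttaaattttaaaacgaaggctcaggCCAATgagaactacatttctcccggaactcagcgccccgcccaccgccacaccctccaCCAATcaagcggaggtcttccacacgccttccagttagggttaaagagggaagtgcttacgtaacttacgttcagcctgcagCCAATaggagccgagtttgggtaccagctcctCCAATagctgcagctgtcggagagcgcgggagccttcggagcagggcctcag
Pcna: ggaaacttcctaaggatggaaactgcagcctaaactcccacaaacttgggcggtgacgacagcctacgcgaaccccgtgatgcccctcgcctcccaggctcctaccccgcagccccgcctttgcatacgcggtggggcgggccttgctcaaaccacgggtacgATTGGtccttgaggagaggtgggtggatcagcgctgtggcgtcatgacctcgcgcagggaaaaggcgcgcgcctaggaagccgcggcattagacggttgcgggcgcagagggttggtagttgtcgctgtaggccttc
In the E2f8 window 1 E2F core and 1 CCAAT box overlap and form a single run of capitals. The Rrm2 window has 1 of each, far apart, the Ticrr window has 4 CCAAT boxes and 0 E2F cores, and the Pcna window has 1 CCAAT box and 0 E2F cores. The table matched 35 of the 42 members with 41 windows; Ccne2, Gins1, Gins2, Mcm4, Pole, Rfc2 and Tipin had no entry. The E2F core occurred in 25 of the 41 windows (61.0%) and in 9.57% of all 32851 windows of the table. The full form of 8 letters, which contains the core, occurred in 12 of the 41 windows (29.3%) and in 2.26% of all windows. The CCAAT box occurred in 24 windows (58.5%) against 37.4% of all, and the cell cycle homology element TTTGAA, searched on both strands, in 6 (14.6%) against 17.9% of all. A match is a description of the letters in 300 bases and not a measured binding site.

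Taken as list means, markers of the labelled cell types were present on all 12 arrays. The mean log2 intensity of 8 T cell markers lay between 11.85 and 12.01 on Treg arrays and between 11.9 and 12 on transduced arrays, and 10 Treg markers lay at 11.01 to 11.49 and 10.15 to 10.65. The lowest Treg marker of an array gave 405 to 868 on Treg arrays. On transduced arrays it gave 47.6 to 72.7, at the level of genes of other tissues. Foxp3 gave 3442 and 3321 in M176 Tregs and 5327 to 5991 in the other Tregs, and 5233 to 6163 in transduced cells. Other lists moved with particular groups. The 14 B cell markers averaged 8.07 on WT Treg replicate 2 against 6.83 to 7.05 on the other Treg arrays, and 7.75 to 7.85 on transduced arrays. The 39 small nucleolar and Cajal body RNA genes averaged 9.66 and 9.70 in M176 Tregs, 8.35 to 8.58 in the other Tregs and 8.34 to 9.32 in transduced cells. The 10 markers of CD8+ T and NK cells averaged 6.09 to 6.35 in Tregs and 7.23 to 7.75 in transduced cells. Myeloid markers (8 genes, 5.73 to 5.96) and erythroid markers (7 genes, 6.07 to 6.62) stayed near the 5.82 to 6.30 of genes of other tissues. The level of the array background was read from 34 genes of other tissues, whose median intensity per array was 50.4 to 73.2 and whose 90th percentile was 116 to 167.

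All 42 members were tested, because each lay above the median of its array (101.5 to 117.4) on at least 2 of 12 arrays; 31 lay above it on every array. Orc1, Gins1, Clspn and Ccne2 did so on no Treg array and were tested because of the transduced cells, so their Treg values lie among those of genes of other tissues. One library stood apart in the member values. M354 Treg replicate 2 was above replicate 1 for 41 of 42 members, by a median of 0.316 on the log2 scale. The same count was not taken over all tested genes, so the shift may not be particular to the members. In the remaining groups, replicate 1 was the higher array for between 10 and 33 of the 42 members.

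**Figure D1:**
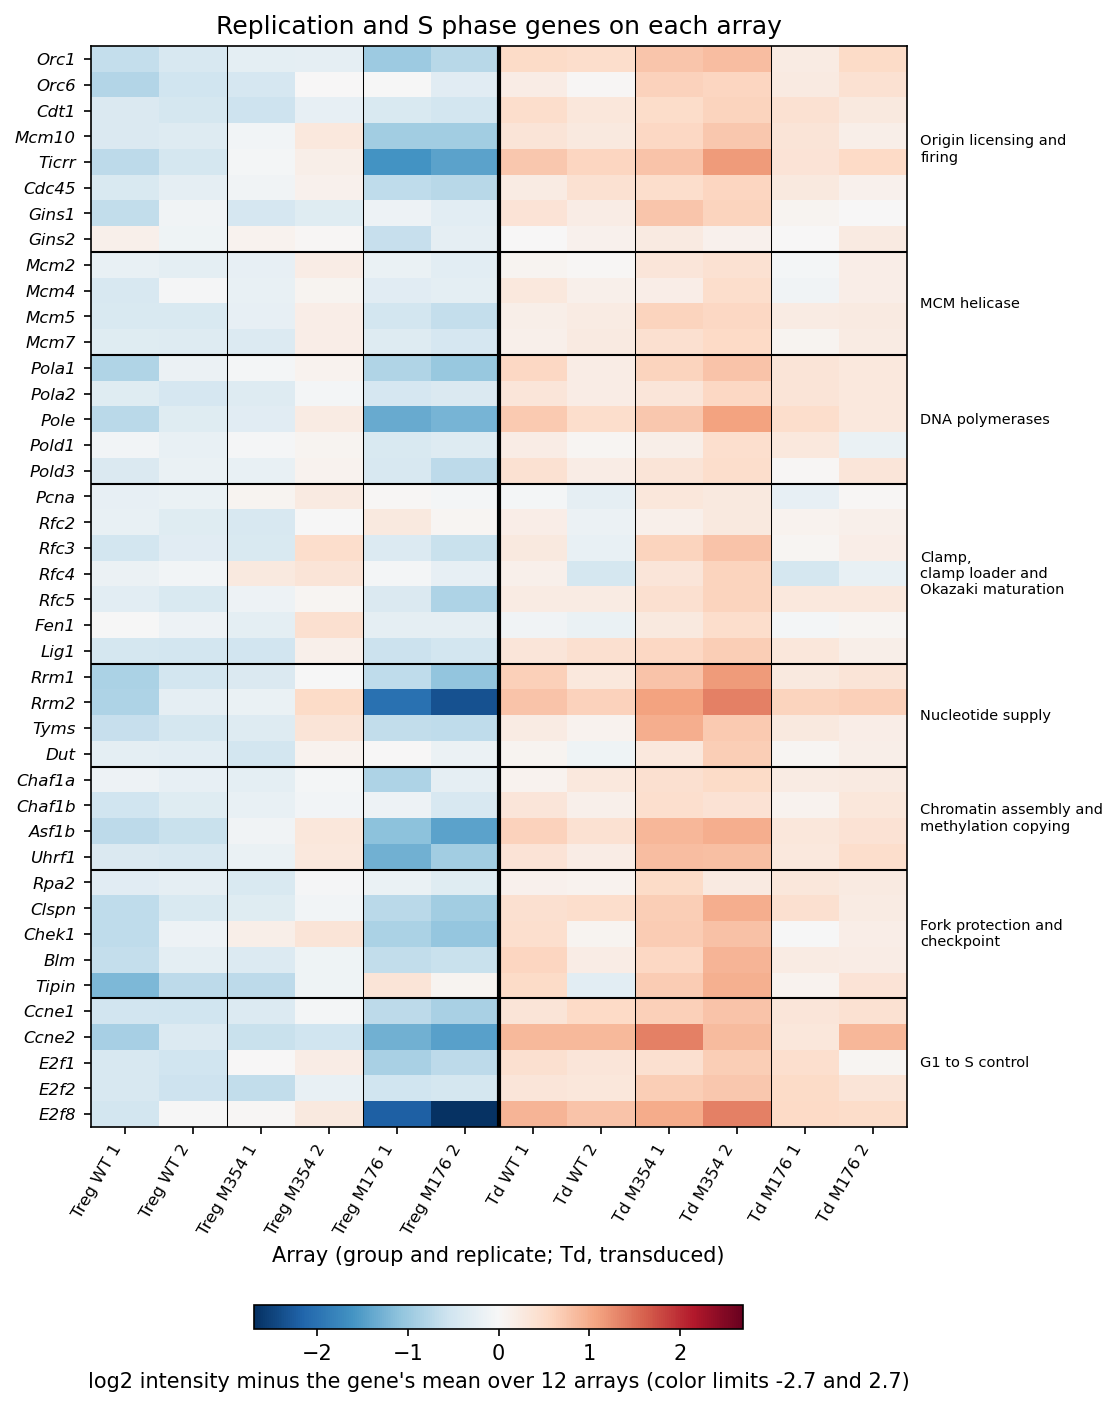
Log2 intensity of each of the 42 members (rows, ordered by role) on each of the 12 arrays (columns), as the difference from the gene's own mean over the 12 arrays; color limits are −2.7 and 2.7. The 6 Treg columns are mostly below a gene's mean and the 6 transduced columns mostly above it, and the deepest blue cells are E2f8 and Rrm2 in the 2 M176 Treg arrays.

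In both cell systems the M354 group was the highest for most members, and in Tregs the M176 group was the lowest for most. In Tregs the M354 group had the highest mean for 37 of 42 members (88.1%; 25.2% of all 8918 tested genes) and the M176 group the lowest for 34 (81.0%; 43.1% of all). The full order M354 above WT above M176 held for 34 members (81.0%; 20.8% of all). In transduced cells the M354 group was the highest for all 42 (39.4% of all tested genes), while the lowest was M176 for 26 and WT for 16. The lowest transduced group was not counted over all tested genes, so the 26 does not set the members apart. The range of the 3 group means was wider in Tregs than in transduced cells for 27 of 42 members. That measure was not counted over all tested genes, so it does not set the members apart. All of these are counts from group means, and the tests of each difference follow. Throughout, a gene is called at a limma p-value below 0.05 after Benjamini-Hochberg adjustment over the 8918 genes, differences are of mean log2 intensities with their standard error (SE), and values per array are linear intensities in the order replicate 1, replicate 2.

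In M176 Tregs 11 of the 42 replication genes fell and 2 rose against WT Tregs, while the MCM helicase subunits and the clamp genes did not pass the test. E2f8, the S phase repressor of E2F targets, had the deepest fall (−2.18 ± 0.18 on the log2 scale, SE), followed by Rrm2, the small subunit of ribonucleotide reductase (−1.65 ± 0.21). Ticrr, which helps to fire origins, fell by 0.94 ± 0.15. Tipin, a fork protection factor, rose by 1.17 ± 0.24. The M176 values of E2f8 and the WT values of Tipin lay at the level of genes of other tissues, so the sizes of these changes are lower bounds. The M176 values of Ticrr, Mcm10, Chek1, Pole, Uhrf1 and Ccne2 were low as well. They lay below the 90th percentile of genes of other tissues on those arrays (149 and 137), so their falls may also be understated. For Mcm10, Uhrf1 and Ccne2 both WT values were below that percentile on the WT Treg arrays as well (156 and 143). Of all tested genes 11.3% fell and 13.4% rose in this comparison, beside 11 and 2 of 42 members; the difference between these shares was not tested. The median difference was −0.197 over the members and −0.043 over all tested genes. In sorted bulk cells, fewer cells in S phase and less RNA per cell cannot be told apart.

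The control genes of the G1 to S step held the largest change. E2f8 gave 188 and 263 in WT Tregs and 57.9 and 42 in M176 Tregs, the latter at the level of genes of other tissues (adjusted p = 8.2e-07). Both M176 arrays were far below both WT arrays. Ccne2, a cyclin E, gave 73.4 and 106 in WT Tregs and 56.1 and 49.6 in M176 Tregs, and fell by 0.74 ± 0.20 (adjusted p = 0.0135) within the range of background. Ccne1, the other cyclin E, gave 285 and 279.8 against 247 and 222, with no overlap, and a difference of −0.27 (adjusted p = 0.164). E2f1 gave 192 and 178 in WT Tregs against 141 and 158, also with no overlap, and a difference of −0.31 (adjusted p = 0.14). E2f2 gave 269 and 248 against 251 and 263, a difference of −0.01 ± 0.15 (adjusted p = 0.982), so that the 2 activating E2F genes and Ccne1 missed the threshold while E2f8 and Ccne2 passed it.

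Nucleotide supply was split between its members. Rrm2 gave 340.2 and 513 in WT Tregs and 150.1 and 119 in M176 Tregs (adjusted p = 4.47e-05), with all M176 values below all WT values. Its partner Rrm1, the large subunit, gave 499.7 and 644 in WT Tregs and 557 and 431 in M176 Tregs, and these arrays overlapped (−0.21 ± 0.19, adjusted p = 0.43). Tyms, thymidylate synthase, gave 192 and 213 against 188 and 184 (−0.13, adjusted p = 0.636). Dut, which removes dUTP, had a difference of 0.20 (adjusted p = 0.431).

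Of the 8 genes of origin licensing and firing, 4 fell and 1 rose. Ticrr gave 154 and 182 in WT Tregs and 82.6 and 92.9 in M176 Tregs (adjusted p = 0.000377). Mcm10, which joins the helicase to the polymerase, gave 133 and 137 against 90.2 and 90.6 and fell by 0.58 ± 0.14 (adjusted p = 0.0062). Cdc45, a part of the active helicase, gave 193 and 218 against 161 and 154 and fell by 0.38 ± 0.13 (adjusted p = 0.0451). Each of these 3 genes had both M176 arrays below both WT arrays. Gins2, a GINS subunit, fell by 0.45 ± 0.15 (adjusted p = 0.0353), from 333 and 278 to 195 and 254. Orc6, a small subunit of the origin recognition complex, moved the other way, from 137 and 164 in WT Tregs to 237 and 193 in M176 Tregs (0.51 ± 0.16, adjusted p = 0.0293). Orc1, Cdt1 and Gins1 were not called, with differences of −0.33, −0.03 and 0.16.

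The MCM subunits were close in M176 and WT Tregs. Mcm5 gave 476 and 479 in WT Tregs and 447 and 407 in M176 Tregs, a difference of −0.16 ± 0.14 (adjusted p = 0.401). The other 3 subunits on the list, Mcm2, Mcm4 and Mcm7, had differences between −0.06 and 0 with SEs of 0.15 to 0.16, and their arrays overlapped. Among 5 polymerase genes, Pole, the catalytic subunit of the leading strand polymerase, fell by 0.78 ± 0.18 (adjusted p = 0.00499) from 178 and 237 to 116 and 123. Pola1, the catalytic subunit of the priming polymerase, gave 126 and 198 in WT Tregs and 126 and 109 in M176 Tregs; the 2 WT arrays differed widely and the difference of −0.43 was not called (adjusted p = 0.0952). Pola2, Pold1 and Pold3 had differences of −0.03, −0.24 and −0.28.

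None of the 7 genes of the clamp, its loader and the maturation of Okazaki fragments was called, and their median difference was −0.048. Pcna gave 2760.0 and 2866 in WT Tregs and 3305 and 3101 in M176 Tregs. Both M176 arrays were above both WT arrays, and the difference of 0.19 ± 0.13 was not called (adjusted p = 0.328). Rfc4, a clamp loader subunit, gave 738 and 782 against 794 and 705 (−0.02, adjusted p = 0.941). Fen1 gave 148 and 135 against 126 and 125 (−0.17, adjusted p = 0.5), and Lig1 gave 214 and 211 against 200.1 and 211 (−0.05, adjusted p = 0.857). Rfc2 had the highest difference of these genes, 0.42 ± 0.16 (adjusted p = 0.0624).

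Chromatin factors and checkpoint genes were divided as well. Asf1b, a histone chaperone of proliferating cells, gave 462 and 497 in WT Tregs and 349 and 275 in M176 Tregs and fell by 0.63 ± 0.15 (adjusted p = 0.00663). Uhrf1, which recruits the maintenance DNA methyltransferase, fell by 0.70 ± 0.16 (adjusted p = 0.00426) from 121 and 118 to 64.8 and 83.1, values at the level of genes of other tissues. Chaf1b, a subunit of the histone chaperone CAF-1, gave 222 and 257 against 294 and 238, which overlap (0.15, adjusted p = 0.483). Chek1, the kinase that guards stalled forks, fell by 0.53 ± 0.17 (adjusted p = 0.0321) from a mean of 148.7 ± 38.7 (SD, n = 2) in WT Tregs to 108 and 94.5. Clspn, which brings Chek1 to its activator, gave 54.9 and 65.7 against 52.7 and 45.7, all within background (−0.29, adjusted p = 0.17). Rpa2, a subunit of the protein that coats single-stranded DNA, gave 209.9 and 219 against 231 and 208 (0.03, adjusted p = 0.894). Tipin gave 75.3 and 108 in WT Tregs and 222 and 185 in M176 Tregs (adjusted p = 0.00192), the WT values being within background, and was the only fork gene of the 5 whose M176 arrays lay above both WT arrays.

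Calls on E2f8, Rrm2, Ticrr and Tipin, 4 of 13, held under every alternative tried, and the others were lost without at least 1 library. Without M176 Treg replicate 1 the members called lower numbered 5, and the adjusted p became 0.268 for Orc6, 0.0524 for Mcm10, 0.14 for Cdc45, 0.379 for Gins2, 0.0527 for Pole, 0.0917 for Uhrf1 and 0.0779 for Chek1. Cdc45 held in 11 of 20 alternatives and was also lost with no filter on dim genes (0.0577), with 32 added before log2 (0.054), with a replicate block (0.0564) and without either M354-transduced array (0.0545 each). Without M176 Treg replicate 2 the adjusted p was 0.182 for Cdc45, 0.0969 for Asf1b, 0.18 for Chek1 and 0.0913 for Ccne2. Without WT Treg replicate 1 it was 0.206 for Orc6, 0.0664 for Cdc45 and 0.255 for Gins2. Without WT Treg replicate 2, the array with the higher B cell markers, 7 members were called lower and 2 higher, and Cdc45 (0.24), Pole (0.0673), Chek1 (0.34) and Ccne2 (0.154) were lost. The small nucleolar RNA genes were higher on both M176 Treg arrays, as given above, and their part in these results was not tested.

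**Figure D2:**
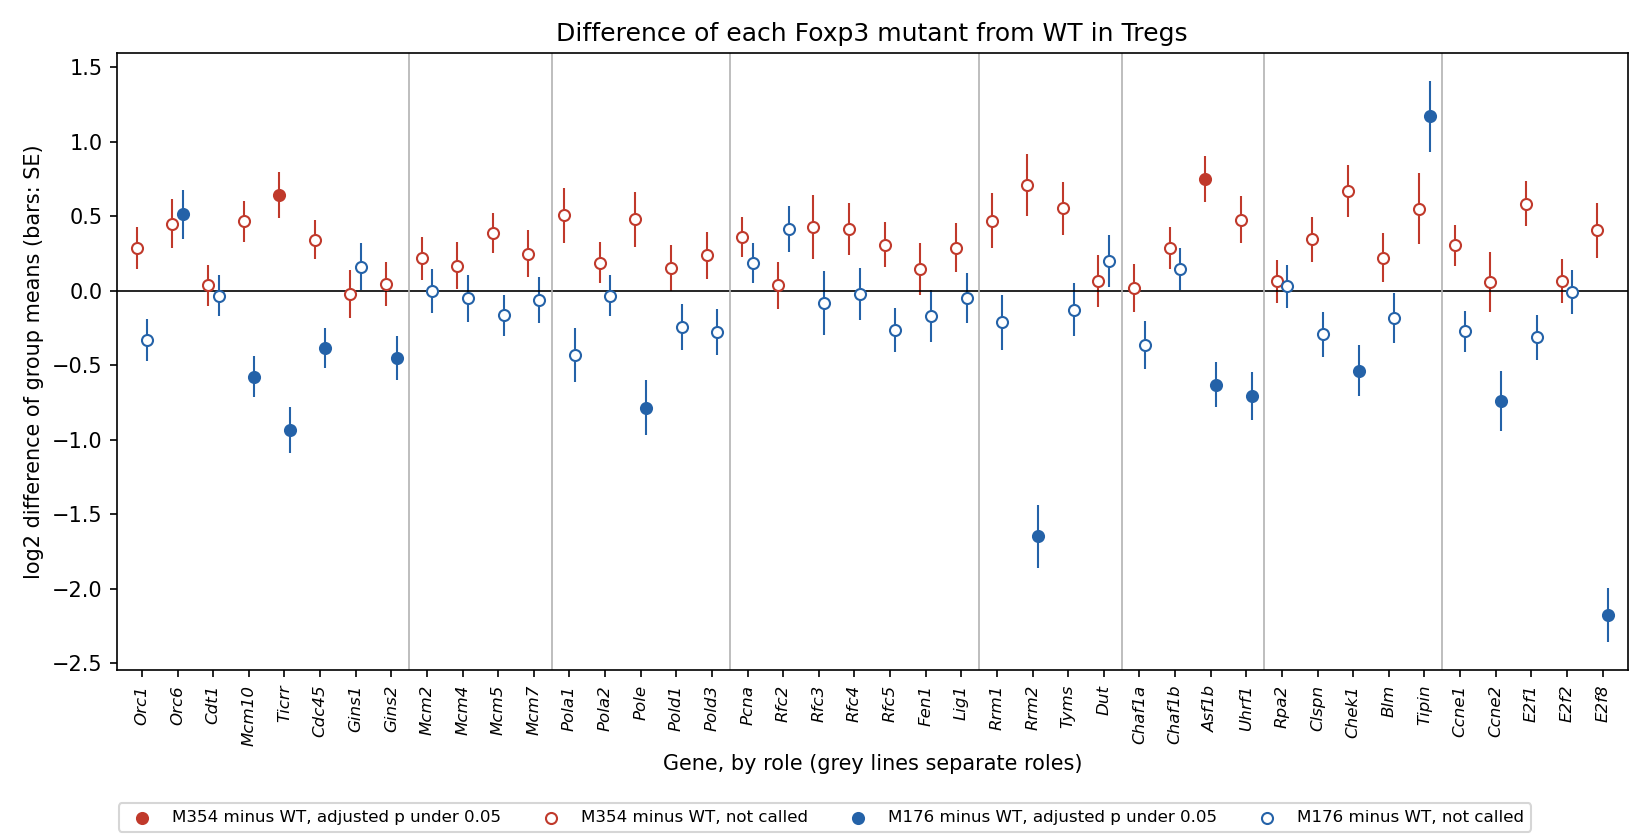
Difference in mean log2 intensity from WT Tregs for each of the 42 members, on the vertical axis, with genes along the horizontal axis by role, M354 in red, M176 in blue and bars of 1 SE from limma (2 arrays a group); filled points were called at an adjusted p below 0.05. All M354 points but that of Gins1 lie above 0, and the M176 points of E2f8, Rrm2 and Ticrr lie lowest, with Tipin of M176 highest.

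In M354 Tregs 2 of the 42 members rose against WT Tregs and 0 fell; of all tested genes 0.886% rose. Asf1b rose by 0.75 ± 0.15 (adjusted p = 0.014), from the WT values above to 705 and 921, and Ticrr by 0.64 ± 0.15 (adjusted p = 0.0381), to 244 and 280.2. The differences of 41 members were above 0, with a median of 0.308 against −0.045 over all tested genes; the exception, Gins1, was at −0.02. An unadjusted p below 0.05 was reached by 20 members, each with the higher mean in M354 Tregs, and by 11.1% of all tested genes. Both M354 arrays lay above both WT arrays for 23 members, a pattern that 13.1% of all tested genes showed.

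Members that missed the threshold included genes of most roles. Chek1 gave 217 and 249 in M354 Tregs (0.67 ± 0.17, adjusted p = 0.0567) and E2f1 gave 259.9 and 296 (0.59 ± 0.15, adjusted p = 0.0556). Both genes had M354 arrays above the WT arrays without overlap. Rrm2 gave 538 and 870.1, with a difference of 0.71 ± 0.21 (adjusted p = 0.111), and its first M354 array was close to the higher WT array. Rrm1 gave 686 and 900.3 (0.47, adjusted p = 0.29) and Tyms gave 233 and 379 (0.55, adjusted p = 0.151). In each of these nucleotide genes replicate 2 was well above replicate 1.

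Among the origin and polymerase genes, Mcm10 gave 165 and 210.1 in M354 Tregs (0.47, adjusted p = 0.111) and Cdc45 gave 243 and 279 (0.34, adjusted p = 0.274). Orc6 gave 174 and 242 (0.45, adjusted p = 0.227). Pola1 gave 211 and 237 (0.51, adjusted p = 0.226), and Pole gave 239 and 342 (0.48, adjusted p = 0.264). In these 5 genes both M354 arrays were above both WT arrays, for Pole by a narrow margin. Mcm5 gave 547 and 715 (0.39, adjusted p = 0.209), while Mcm2, Mcm4 and Mcm7 overlapped with WT at differences of 0.17 to 0.25.

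The clamp gene Pcna gave 3411 and 3819 in M354 Tregs (0.36, adjusted p = 0.25) and Rfc4 gave 980.4 and 1044 (0.41, adjusted p = 0.354), both above WT without overlap. Fen1 gave 123 and 199.9 (0.15) and Lig1 gave 207 and 326 (0.29), with 1 M354 array below WT and 1 above. Uhrf1 gave 142 and 195 (0.48, adjusted p = 0.176), and Chaf1b gave 278 and 305 (0.29, adjusted p = 0.476). Neither overlapped with WT. Clspn gave 69.8 and 83.4 (0.35), Rpa2 gave 197 and 254 (0.06), and Tipin gave 108 and 162 (0.55, adjusted p = 0.377), the lower Tipin array being level with the higher WT array. E2f8 gave 272 and 320.2 (0.41 ± 0.18, adjusted p = 0.411), E2f2 gave 229 and 318 (0.07), Ccne1 gave 312 and 389.7 (0.31) and Ccne2 gave 89.8 and 93.7 (0.06). The factor that changed most in M176 Tregs, E2f8, was thus not among the called genes here.

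The 2 calls and their number depended on single arrays and on the scaling. Without M354 Treg replicate 2, or without WT Treg replicate 1, 0 members were called; Asf1b then had an adjusted p of 0.144 and 0.107 and Ticrr of 0.195 and 0.247. Ticrr also lost its call without M354 Treg replicate 1 (0.1), without WT Treg replicate 2 (0.0524) and without either M176 Treg array (0.0526 each). The count was 3 without M354 Treg replicate 1, 1 without either M176 Treg array and 4 without WT Treg replicate 2 or without either WT-transduced array, and quantile normalization gave 6. The median member difference was 0.20 without M354 Treg replicate 2 and 0.462 without replicate 1.

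Set directly against M176 Tregs, M354 Tregs had 21 members higher and 0 lower by limma, while 12.7% of all tested genes were higher. Of the 21, Orc1, Clspn and Ccne2 lay below the array median in all Tregs and were tested only because of the transduced cells, so both their Treg groups are at background. The differences were largest for E2f8, a lower bound because of its M176 values (2.58 ± 0.18, adjusted p = 5.93e-08), Rrm2 (2.36 ± 0.21, adjusted p = 8.63e-07) and Ticrr (1.58 ± 0.15, adjusted p = 2e-06). Calls came from all 8 roles, with 5 of 8 origin genes, 1 of 4 MCM genes, 3 of 5 polymerase genes, 1 of 7 clamp genes, 3 of 4 nucleotide genes, 2 of 4 chromatin genes, 2 of 5 fork genes and 4 of 5 G1 to S genes. An unadjusted p below 0.05 was reached by 28 members, 26 of them higher in M354 Tregs, and by 42.3% of all tested genes. The median difference was 0.503 over the members and −0.022 over all tested genes.

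Between these mutants, E2f1 was higher in M354 Tregs by 0.90 ± 0.15 (adjusted p = 0.000318), Asf1b by 1.38, Pole by 1.26, Chek1 by 1.21, Uhrf1 by 1.18 and Mcm10 by 1.04. Rrm1 and Tyms, which were not called for either mutant against WT, were each higher by 0.68 (adjusted p = 0.0106 and 0.00853). E2f2, Rpa2, Cdt1, Pcna and Chaf1b had differences of 0.03 to 0.17 and were not called. Tipin had a difference of −0.62 ± 0.24 (adjusted p = 0.0578), the reverse of most members. This comparison shares its arrays with the 2 against WT, so the 3 sets of values are not independent of each other.

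For 11 of the 21 genes the call held under every alternative: Mcm10, Ticrr, Cdc45, Pola1, Pole, Rrm2, Asf1b, Uhrf1, Chek1, E2f1 and E2f8. Without M354 Treg replicate 2 there were 15 higher and 2 lower, and Mcm5 (0.0711), Pold3 (0.156), Rfc5 (0.0592), Rrm1 (0.11), Tyms (0.135) and Ccne1 (0.0562) were lost. Without M176 Treg replicate 2, Mcm5 (0.0592), Pold3 (0.174), Rfc5 (0.14), Rrm1 (0.123), Clspn (0.0563), Ccne1 (0.055) and Ccne2 (0.0582) were lost, and Orc1 (0.0644) and Gins2 (0.258) were lost without M176 Treg replicate 1, the latter also without M354 Treg replicate 1 (0.107).

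In transduced cells 0 members were called in any comparison among the 3 forms of Foxp3, and M354 was the highest group for all 42 members. Against WT-transduced cells the M354 differences ran from 0.11 to 0.71 with a median of 0.311, against 0.012 over all tested genes, of which 1.33% were called. An unadjusted p below 0.05 was reached by 21 members and by 11.4% of all tested genes, and both M354 arrays were above both WT arrays for 35, a pattern of 20.2% of all tested genes. M176 against WT had differences of −0.34 to 0.22 with a median of −0.059 (all tested genes −0.009, 0.516% called), and 0 members reached an unadjusted p below 0.05, as 5.91% of all tested genes did. M354 against M176 had differences of 0.05 to 0.81 with a median of 0.377 (all tested genes 0.020, 0.0785% called). In that comparison 27 members and 5.19% of all tested genes had an unadjusted p below 0.05, and 35 members had M354 arrays above M176 arrays without overlap, as had 20.1% of all tested genes.

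Nucleotide genes had the highest median difference of the 8 roles between M354- and WT-transduced cells, 0.512. Tyms gave 344 and 316 with WT Foxp3, 586 and 485 with M354 and 356 and 335 with M176. The M354 arrays were well apart from the other 4, and the difference from WT of 0.69 ± 0.18 had an adjusted p of 0.0712. Rrm1 gave 1403 and 1099 with WT, 1539 and 2011 with M354 and 1089 and 1152 with M176 (0.50, adjusted p = 0.267). Rrm2 gave 1038 and 934 with WT, 1291 and 1547 with M354 and 922 and 944 with M176. The Rrm2 values of M176- and WT-transduced cells overlapped (−0.08 ± 0.21), in the gene that fell in M176 Tregs.

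Clamp and fork genes were next. Pcna gave 3122 and 2745 with WT, 4019 and 3905 with M354 and 2753 and 3325 with M176, and its M354 arrays were above the other 4 (0.44 ± 0.13 against WT, adjusted p = 0.149). Rfc4 gave 902 and 590.0 with WT, 1036 and 1244 with M354 and 587 and 714 with M176, with a wide gap between the 2 WT arrays (0.64, adjusted p = 0.0981 against WT; 0.81, adjusted p = 0.112 against M176). Fen1 gave 139 and 132, 179.8 and 208, and 143 and 153 in the same order (0.51, adjusted p = 0.205). Lig1 gave 373 and 400.2, 437 and 475, and 371 and 335 (0.24, adjusted p = 0.693). M354 arrays were the highest 2 of the 6 for each of these 4 genes.

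For the fork genes, Tipin had the largest difference from WT, 0.71 ± 0.24 (adjusted p = 0.194), with 249.8 and 145 on the WT arrays, 283 and 343 on the M354 arrays and 187 and 227 on the M176 arrays. Its WT arrays span the M176 arrays. Chek1 gave 267 and 206 with WT, 311 and 335 with M354 and 194 and 221 with M176 (0.46, adjusted p = 0.277). Clspn gave 118 and 122, 139.7 and 172, and 119 and 103 (0.37, adjusted p = 0.333). Rpa2 gave 282 and 276, 371 and 307, and 323 and 309.9 (0.27, adjusted p = 0.51), and was the gene of these 4 whose M354 and M176 arrays overlapped.

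Among origin genes, Mcm10 gave 221 and 207 with WT, 256 and 286 with M354 and 220.0 and 194 with M176 (0.34, adjusted p = 0.333). Cdc45 gave 303 and 342, 359.7 and 387, and 310.2 and 280.0 (0.21, adjusted p = 0.62). Ticrr gave 419 and 376, 429.9 and 564, and 325 and 365 (0.31, adjusted p = 0.47), and both its M176 arrays were below both WT arrays. Orc6 gave 273 and 243, 367 and 356, and 283 and 316 (0.49, adjusted p = 0.193), with WT the lowest group. Mcm5, of the helicase, gave 709.8 and 744, 958 and 934, and 744 and 746 (0.38, adjusted p = 0.249). Its 2 M354 arrays were close together and clear of the other 4. The polymerase genes Pola1 (325 and 254, 335 and 375, 280.4 and 268) and Pole (484 and 412, 491 and 625, 409 and 358) had differences of 0.30 and 0.31 between M354 and WT.

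Of the chromatin factors, Asf1b gave 1155 and 1002 with WT, 1395 and 1485 with M354 and 929 and 977 with M176 (0.42, adjusted p = 0.258). Uhrf1 gave 205 and 184, 287 and 280.0, and 194 and 222 (0.54, adjusted p = 0.13), and Chaf1b gave 401 and 353, 444 and 424, and 346 and 398 (0.20, adjusted p = 0.697). The M354 arrays were the highest for all 3. In the G1 to S step, E2f8 gave 504 and 453 with WT, 529.8 and 681 with M354 and 384 and 372 with M176. The E2f8 groups did not overlap, but M176 differed from WT by −0.34 ± 0.18 (adjusted p = 0.912) and M354 from WT by 0.33 (adjusted p = 0.545). E2f1 gave 349.8 and 325, 346 and 410.5, and 352 and 267 (0.16). E2f2 gave 461 and 454, 576 and 602, and 519 and 465 (0.36), Ccne1 gave 512 and 591, 636 and 695, and 509 and 541 (0.27), and Ccne2 gave 252 and 249.8, 352 and 249, and 169.6 and 257 (0.24). Ccne2 had 1 M354 array far above all others and 1 level with WT.

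A fit of the 6 transduced arrays alone called 1 member higher in M354 than in WT, and leaving out WT-transduced replicate 1 called 2. Leaving out either M354 Treg array, which changes only the shared spread, called 1. Between M354 and M176 in transduced cells the count was 1 without either WT-transduced array.

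**Figure D3:**
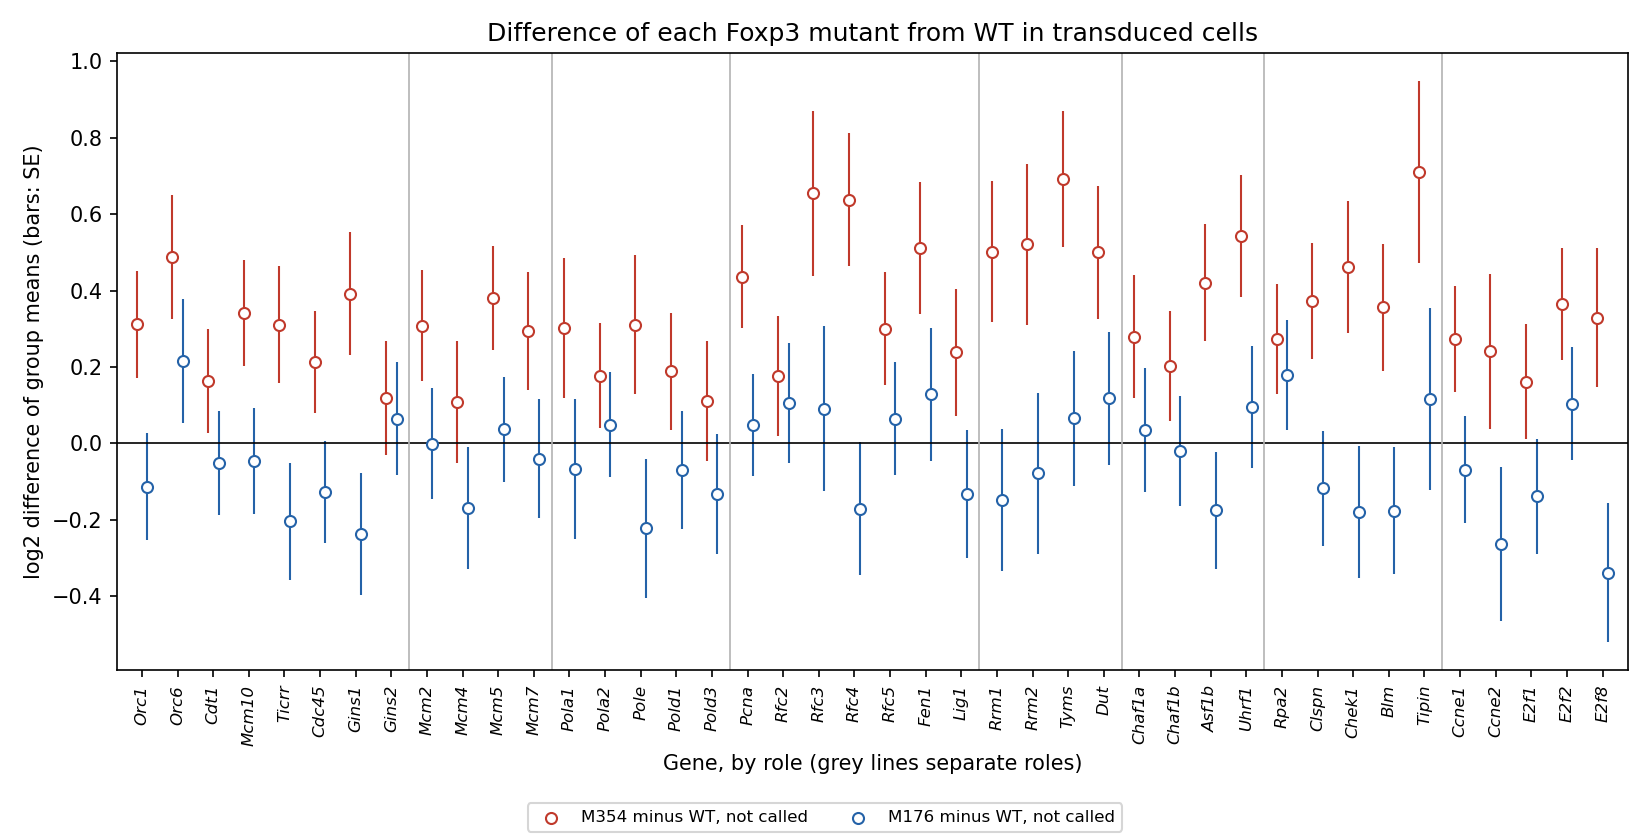
Difference in mean log2 intensity from WT-transduced cells for each of the 42 members, on the vertical axis, with genes along the horizontal axis by role, M354 in red, M176 in blue and bars of 1 SE from limma (2 arrays a group). Every M354 point lies above 0, from 0.11 to 0.71, the M176 points scatter around 0 from −0.34 to 0.22, and no point is filled because 0 members were called.

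Whether an allele acted differently in the 2 systems was tested as the effect in Tregs minus the effect in transduced cells. For M354, 0 members were called (1.08% of all tested genes were) and 0 had an unadjusted p below 0.05 (8.10% of all tested genes had); differences ran from −0.43 for Dut to 0.42 for E2f1. For M176, 3 members were called, all with the more negative effect in Tregs, as were 1.47% of all tested genes. They were E2f8 (−1.84 ± 0.26, adjusted p = 0.000586), Rrm2 (−1.57 ± 0.30, adjusted p = 0.00588) and Uhrf1 (−0.80 ± 0.23, adjusted p = 0.0477). The value for E2f8 is a lower bound in size, because its M176 Treg values are at background, as are those of Uhrf1. In E2f8 the 2 M176 Treg arrays were below all 10 others, and in Rrm2 likewise, while the M176-transduced arrays lay at 372 or above for E2f8 and at 922 or above for Rrm2.

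Ticrr (−0.73 ± 0.22, adjusted p = 0.0583) and Tipin (1.05 ± 0.34, adjusted p = 0.0772) missed the threshold in that test. The remaining genes called in M176 against WT Tregs, Orc6, Mcm10, Cdc45, Gins2, Pole, Asf1b, Chek1 and Ccne2, had differences between systems of −0.56 to 0.30 that were not called, so their change was not shown to differ between Tregs and transduced cells. E2f8 and Rrm2 kept their calls under every alternative, with adjusted p-values up to 0.00534 and 0.0301. The call on Uhrf1 held in 5 of 19 alternatives and its adjusted p reached 0.253; it was lost without M176 Treg replicate 1, either WT Treg array, or any one of the 6 transduced arrays, and with quantile or cyclic loess normalization, no filter on dim genes, 32 added before log2, or a replicate block.

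**Figure D4:**
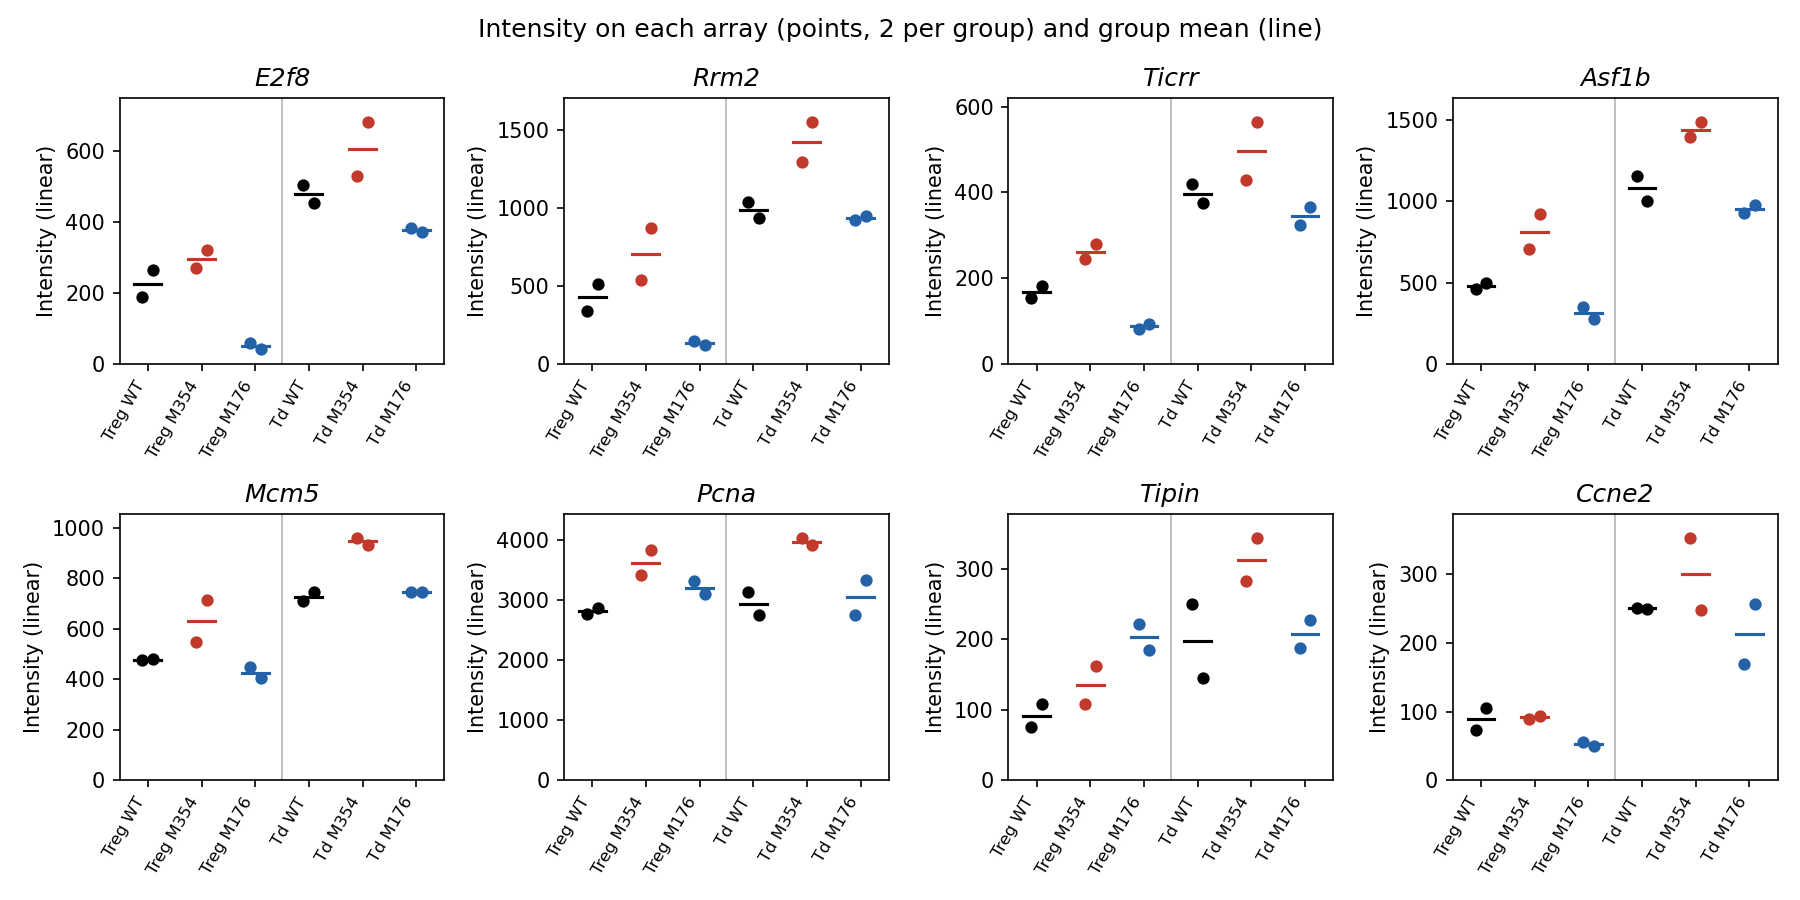
Linear intensity of E2f8, Rrm2, Ticrr, Asf1b, Mcm5, Pcna, Tipin and Ccne2 on each of the 12 arrays, by group, with a line at the mean of the 2 arrays (Td, transduced); each panel has its own vertical axis starting at 0. E2f8 and Rrm2 are lowest in M176 Tregs, at 42 to 57.9 and 119 to 150.1, while Tipin is lowest in WT Tregs, at 75.3 and 108.

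WT Tregs had lower levels of most replication genes than WT-transduced cells: 31 of 42 members were lower and 0 higher by limma, and 19.4% of all tested genes were lower. Among the members above the array median on a Treg array, the largest differences were in Ticrr (−1.25 ± 0.15, adjusted p = 8.62e-06) and Rrm2 (−1.24 ± 0.21, adjusted p = 0.000286). An unadjusted p below 0.05 was reached by 33 members, 0 of them higher, and by 41.6% of all tested genes. The median was −0.673 over the members and −0.076 over all tested genes. Orc1, Gins1, Clspn and Ccne2 were tested only because they were high in transduced cells; of the other 38 members 27 were called. For 23 members every Treg array, whatever the allele, lay below every transduced array (54.8%; 16.7% of all tested genes). Source, culture, vector and sorting marker differ between the systems together and cannot be told apart.

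The role with the widest gap was the control of the G1 to S step, with a median difference of −0.964 over 5 genes, all called lower in WT Tregs; 1 of them, Ccne2, was tested only because of the transduced cells. Ccne2, with 73.4 and 106 in WT Tregs against 252 and 249.8 in WT-transduced cells, had its Treg values among those of genes of other tissues, so its difference (−1.51 ± 0.20, adjusted p = 2.28e-05) is a lower bound in size. The log2 differences were −0.96 for Ccne1, −0.87 for E2f1, −0.83 for E2f2 and −1.10 ± 0.18 for E2f8 (adjusted p = 0.000215). In nucleotide supply Rrm1 (−1.13), Rrm2 (−1.24) and Tyms (−0.70) were lower, and Dut was not called. Of the origin genes 7 of 8 were lower; Gins2 was the exception at −0.05 ± 0.15. Asf1b (−1.17), Pole (−1.12) and Tipin (−1.08) were lower, as were 3 of 4 MCM genes (−0.60 to −0.45).

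The clamp group again stood closest to equal levels. Of its 7 genes, Rfc5 (−0.58) and Lig1 (−0.86) were lower. Pcna gave 2760.0 and 2866 in WT Tregs and 3122 and 2745 in WT-transduced cells, which overlap (−0.06 ± 0.13, adjusted p = 0.776). Rfc4 and Fen1 were each at 0.06 with SEs of 0.17. The uncalled members also included Mcm2, Pold1, Chaf1a and Rpa2, at −0.26 to −0.38.

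Of the 31 calls 23 held under every alternative. Leaving out WT Treg replicate 1 lowered the count to 25 and ended the calls on Gins1, Mcm4, Mcm7, Pold3, Tyms and Chek1, and leaving out WT Treg replicate 2 ended those on Mcm7 and Rfc5. Leaving out WT-transduced replicate 1 ended Mcm4, Pold3, Chek1 and Tipin, and replicate 2 ended Mcm4 and Mcm7; Mcm4 was also lost without either M176 Treg array and with quantile or cyclic loess normalization, and Mcm7 with quantile normalization. Their highest adjusted p-values were 0.132 for Gins1, 0.377 for Mcm4, 0.066 for Mcm7, 0.0904 for Pold3, 0.0515 for Rfc5, 0.0553 for Tyms, 0.139 for Chek1 and 0.0512 for Tipin. CD8+ T and NK cell markers were higher on transduced arrays, as given above, and their part in the difference was not tested.

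**Figure D5:**
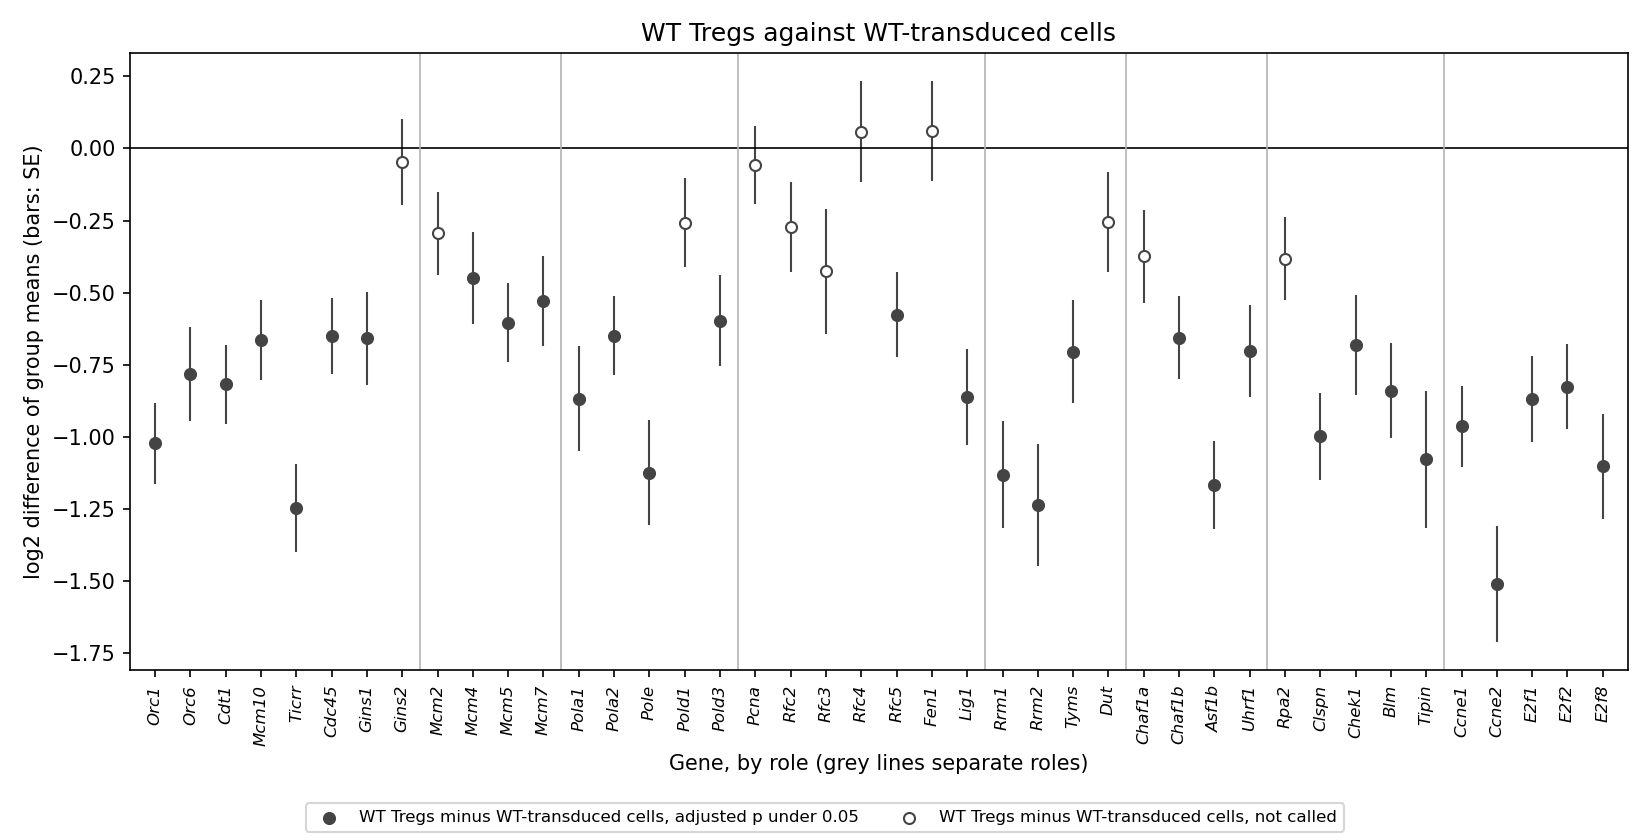
Mean log2 intensity in WT Tregs minus that in WT-transduced cells for each of the 42 members (vertical axis), with genes along the horizontal axis by role and bars of 1 SE from limma (2 arrays a group); filled points were called. The 31 filled points lie below 0, and Pcna, Gins2, Rfc4 and Fen1 lie close to it.

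A second list of 113 other replication, repair and cell cycle genes gave 86 measured and 83 tested genes, described here beside the members. In M176 against WT Tregs 7 of the 83 were higher and 9 lower, with a median of −0.063. Of all tested genes 13.4% were higher and 11.3% lower, with a median of −0.043, and the list was not tested against these shares. Ccna2, the cyclin of S phase and G2, fell by 2.66, and Wee1, an inhibitor of cyclin-dependent kinases, Tk1, thymidine kinase, Rad51ap1, Cdk6 and Cdkn2c fell by 0.88, 0.70, 0.67, 0.58 and 0.55. Rpa3, the small subunit of RPA, rose by 1.29, Rad1 by 0.91, Pold4 by 0.86, Pole2 by 0.71, Nasp by 0.68 and Dbf4 by 0.62. In M354 against WT Tregs 2 were higher (Cks1b 0.88, Ccna2 0.70) and 1 lower (Donson −0.57), with a median of 0.072. Of all 8918 tested genes 79 (0.886%) were higher and 82 lower, with a median of −0.045. In WT Tregs against WT-transduced cells 35 of 83 were lower and 4 higher, with a median of −0.311. Of all 8918 tested genes 1728 (19.4%) were lower and 968 higher, with a median of −0.076.

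Mitosis genes, which act after S phase, were measured on the same arrays (46 tested). In M176 against WT Tregs 33 of 46 were lower and 0 higher, with a median of −0.684 beside −0.197 for the replication genes. Of all tested genes 11.3% were lower and 13.4% higher. Between M354 and M176 Tregs 37 were higher and 1 lower, with a median of 1.02, while 1129 (12.7%) of all 8918 tested genes were higher and 1618 lower. In M354- against WT-transduced cells 6 were higher, as were 32 of all 8918 tested genes. In WT Tregs against WT-transduced cells 45 were lower and 1 higher, with a median of −1.46, and 19.4% of all tested genes were lower. The difference between the lists was not tested.

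Promoter matches were also counted by call. Of the 13 members called in M176 against WT Tregs, 9 had a promoter in the table, and 4 of these held the E2F core, as did 18 of 26 members that were not called. The CCAAT box stood in 8 of 9 and 13 of 26. Among members called in WT Tregs against WT-transduced cells, 16 of 26 held the E2F core and 16 of 26 the CCAAT box, and among the others 6 of 9 and 5 of 9. These are counts over few genes, without a test.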

How the data were processed

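Total RNA of 12 samples was amplified with the Ambion WT Expression Kit and hybridised to Affymetrix ST1.0 arrays, per the labels. Per the submitters' processing notes, the authors used Affymetrix Power Tools and RMA, which corrects background, equalises the arrays and summarises probes. Versions and build: not given in the sources used here. The deposited values are linear intensities of 20716 probe sets on each array. No depth is defined, and 2 arrays a group limit the precision.

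Of the probe sets, 17703 had 1 gene symbol, 1246 several and 1767 none; the first kind gave 16426 genes, with the brightest probe set taken for 734 genes with several. Genes above their array's median (percentile 50) on at least 2 of 12 arrays were tested (8918). Few genes of chromosomes 1, 10 and 11 (29, 15 and 226) are in the table. On the log2 scale, limma 3.58.1 (R 4.3.3) fitted the model, with 1 mean a group, 12 arrays, no block, 6 residual degrees of freedom and a prior worth 10.9. Each of 9 comparisons was adjusted over all tested genes by Benjamini-Hochberg (threshold 0.05).

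Members and lists were chosen with earlier results of these data known. Values per array are given for 23 members listed in the plan and for the 3 largest called rises and falls of each comparison; other members by role. Of the other list up to 6 called genes a direction are named. Promoters come from RefSeq (GRCm38.p6), and Python 3.11.15 drew figures and searched motifs. Replicates of a group correlated at 0.9842 to 0.9918 and no array was a copy of another. The fit was tested on simulated data for M176 against WT Tregs, with 50 genes changed by each size. It recovered 40% of log2 changes of 0.5, 88% of changes of 1, 96% of −1 and 100% of 2, with 7 false calls. In that simulation, differences near 0.5 were thus often missed. It changed far fewer genes than the 1196 higher and 1010 lower called in the real comparison. With fewer changed genes the adjustment is stricter, so these shares need not hold for the real data. Orc6 (0.51) and Gins2 (−0.45) were called there. Alternatives covered normalization, filter, probe sets, an added 32, variance trend, block, each system alone and each array left out.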

Additional observations from a re-analysis of the deposited data

Results flagged for a closer look

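Of the members and the list of other replication genes, 6 genes had an M176 effect that differed between Tregs and transduced cells in the limma test of that difference. Among the members these were E2f8 (−1.84, SE 0.26, adjusted p = 0.000586), Rrm2 (−1.57, SE 0.30, adjusted p = 0.00588) and Uhrf1 (−0.80, SE 0.23, adjusted p = 0.0477), each the effect in Tregs minus the effect in transduced cells. The Uhrf1 call held in 5 of 19 alternatives and was lost with quantile or cyclic loess normalization, no filter on dim genes, 32 added before log2, a replicate block and 9 of the 12 arrays left out in turn. Among the other replication genes they were Ccna2 (−2.44, SE 0.24, adjusted p = 2.56e-05), Tk1 (−0.84, SE 0.19, adjusted p = 0.0146) and Rpa3 (1.15, SE 0.25, adjusted p = 0.011).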

How the results depend on the processing

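Of 7632 values of single genes under the alternatives, 7418 kept their direction and side of the threshold, or changed direction uncalled within the gene's replicate spread. A further 59 changed direction, uncalled, with a shift of at least that spread. A call was lost in 80 and gained in 75, and 0 changed direction with a call on either side. Counts of members moved more. M354 against WT Tregs had 6 higher with quantile normalization, 5 with cyclic loess and 4 with Treg arrays alone, against 2; M354 against M176 Tregs had 1 lower with quantile normalization and 1 with Treg arrays alone, against 0; M354- against WT-transduced cells had 1 higher with transduced arrays alone. A filter at percentile 75, which left 22 of 42 members tested, gave 0 higher and 5 lower in M176 against WT Tregs, 11 higher in M354 against M176 Tregs and 18 lower in WT Tregs against WT-transduced cells. With 1 array left out at a time, where a lone array is assumed to vary like the other groups, counts ranged from 0 to 4 higher (M354 against WT Tregs), 1 to 3 higher and 5 to 11 lower (M176 against WT Tregs), 15 to 24 higher and 0 to 2 lower (M354 against M176 Tregs), 0 to 2 higher (M354- against WT-transduced cells), 0 to 1 higher (M354- against M176-transduced cells), 0 to 1 higher and 2 to 3 lower (M176 effect between systems) and 25 to 32 lower (WT Tregs against WT-transduced cells). Comparisons across systems could not be fitted on 1 system alone. Quantile normalization moved the median of all tested genes in WT Tregs against WT-transduced cells from −0.076 to 0.029 and the members' median from −0.673 to −0.625.

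No consistent pairing by replicate number was seen, which does not exclude one. Deviations of same-numbered arrays correlated at −0.55 to 0.25 over 15 pairs of groups, above 0.1 for 3. With a replicate block, the members called were 2 higher in M354 against WT Tregs, 2 higher and 10 lower in M176 against WT Tregs (Cdc45 was lost, adjusted p = 0.0564), 21 higher in M354 against M176 Tregs, 2 lower in the M176 effect between systems (Uhrf1 was lost) and 31 lower in WT Tregs against WT-transduced cells, with 0 in the other comparisons.

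With 2 arrays a group the precision is low, and the values of Orc1, Gins1, Clspn and Ccne2 in Tregs lie among those of genes of other tissues.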
